A study of Mus musculus with 24 samples.

Results

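The genes described here are 38 markers of cells other than cardiomyocytes (CMs), read in RNA from CM nuclei of the postnatal mouse heart. They are 38 of the 56923 gene identifiers counted in each library, and were chosen by lineage as a measure of how pure the sorted nuclei were. The set holds 5 fibroblast, 13 endothelial, 5 mural, 7 immune, 3 erythroid and 4 epicardial markers and 1 glial marker. Ventricles of C57BL/6N mice were snap-frozen, and nuclei were sorted with an antibody to PCM1, which marks the nuclear surface in CMs but not in the lineages listed here. All mice carried floxed Casp2 alleles. Controls (XMLC2(-)Casp2(fl/fl)) lacked Cre, and Casp2-depleted mice (XMLC2(+)Casp2(fl/fl)) expressed Cre from the XMLC2 promoter, which is active in CMs, so that cells of the marked lineages would keep Casp2. Each of the 24 libraries is a pool of 15 hearts at P1, 6 hearts at P7 or 2 hearts at P14, with 4 libraries per genotype and day.

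CMs share the ventricle with many other cells. Endothelial cells line the vessels and the endocardium, mural cells (pericytes and smooth muscle cells) wrap the vessels, and fibroblasts deposit the matrix between them. Resident macrophages, mast cells and blood lie in the same tissue, the epicardium covers its surface, and Schwann cells follow the cardiac nerves. Each of these lineages has genes for receptors, adhesion molecules, transcription factors or secreted proteins that CMs use little or not at all, so reads on such genes can come from nuclei of those cells, from RNA that travels with sorted nuclei, or from priming away from mature transcripts. In pooled RNA, fewer nuclei of a lineage and less RNA per nucleus cannot be told apart.

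The 21 libraries that the study kept held 891817 to 2924097 reads on genes (median 1452114), and 34.3 to 76.1% of their placed reads lay on no annotated gene. The study left out P1 control replicate 1, P14 Casp2-depleted replicate 1 and P14 control replicate 3, which are given separately. Casp2, the targeted gene, had 0 to 5 reads in each of the 21 libraries, so its reads do not check the genotype labels. Pcm1, the gene of the sort marker, had 0 to 480 reads and was not called in any comparison. In edgeR's quasi-likelihood test, a gene was called when its log2 fold change lay beyond 1 in either direction with an adjusted p under 0.05.

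Reads on the markers were few. Over the 21 libraries they summed to 34468 reads, 0.102% of all reads on genes, and ranged from 0.0459 to 0.236% per library. A list of 20 CM genes, such as Myh6, Tnnt2 and Ryr2, held 2298777 reads, or 6.78%. Endothelial markers took 49.9% of the marker reads, and Flt1, Pecam1 and Ptprb alone took 30.8%. Of the 38 markers, 15 to 33 had a read in a given library (median 27), and 25.5 would be expected at the median when every library is brought to 891817 reads. Only Pecam1, Ptprb, F13a1 and Tbx18 had reads in all 21 libraries.

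The counts were uneven between replicates. Of 798 marker values in the 21 libraries, 282 were 0 (35.3%), against 11 of 420 for the CM genes (2.62%). A count of 0 allows up to 3 reads, or 1.03 to 3.36 counts per 1000000 reads on genes (CPM) at these depths, and covers counting error only, since copies of a molecule were not told apart. Among 541 values where another replicate of the same group had at least 20 reads, 105 were 0 (19.4%). This share was lowest in P7 control libraries (7.34%) and highest in P14 control libraries (26.5%). The map of markers by library shows these gaps as grey cells within groups of replicates.

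**Figure D1:**
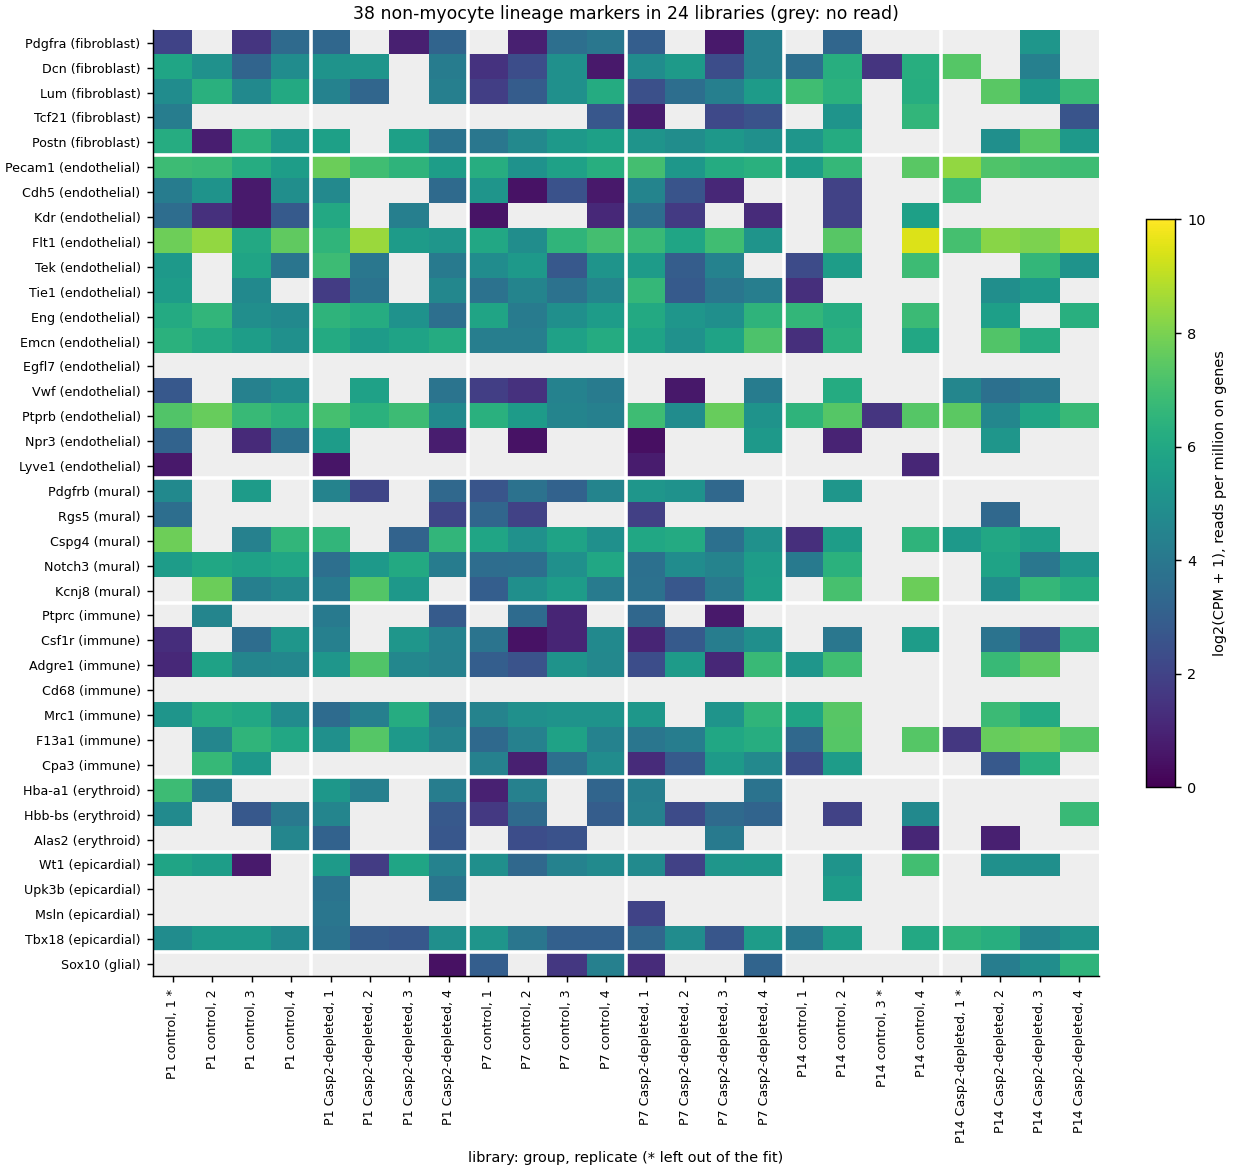
Each row is a marker (lineage in brackets), each column a library (group, replicate; an asterisk marks the 3 libraries left out of the fit), and colour is log2(CPM + 1). Grey cells hold no read: 282 of the 798 values in the 21 kept libraries are grey, Egfl7 and Cd68 are grey throughout, and P14 control replicate 3 has reads on Dcn and Ptprb alone.

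At the median gene, marker reads lay close to the density of reads outside genes, while single markers and classes lay above or below it. For each library, reads on a gene per kilobase of its span (introns included, as in the counts) were divided by reads on no gene per kilobase of strand that carries no annotated gene, 3903.5 Mb in all. Because QuantSeq reads gather at transcript 3′ ends, this ratio describes where reads lie and is not an expression level. Over the 21 libraries the median ratio of the 38 markers was 1.18. It was above 1 for 22 markers and above 5 for Hba-a1 (18.2), Kcnj8 (15.7) and Lum (13.2). The 20 CM genes had a median of 34.0 and a lowest value of 4.0. Olfactory and vomeronasal receptor genes, 1546 genes that heart cells use little, had 0.179 to 0.501 reads per kb (median 0.335). Gene-free strand had 0.369 to 0.930 (median 0.612), and the 38 markers together had 0.346 to 1.45 (median 0.732). The ratio of the 38 markers together was above 1 in 18 of the 21 libraries. Summed by class, it was above 1 in 18 libraries for fibroblast, 18 for mural, 14 for epicardial and 13 for endothelial markers. For erythroid, glial and immune markers it was above 1 in 11, 6 and 5.

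The ratio depends on how strand is treated. Of 1122 genes nested within another gene on the same strand, 7.31% had any read, and of 3228 genes nested on the opposite strand 55.5% had reads, so the counting had separated the strands. Had it not, the gene-free length would be 1331.1 Mb and 8 of the 38 markers would lie above a ratio of 1. Across the 38 genes, longer spans went with more reads (Spearman's rho 0.5 over the 21 libraries, a description over genes that share their libraries), and the same rho was 0.26 in P1 control replicate 1. That library had 9.21% of its reads on no gene, and the median ratio of the markers there was 12, with 27 markers above 1 and 20 above 10. The CM genes had a median ratio of 1120 in it.

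**Figure D2:**
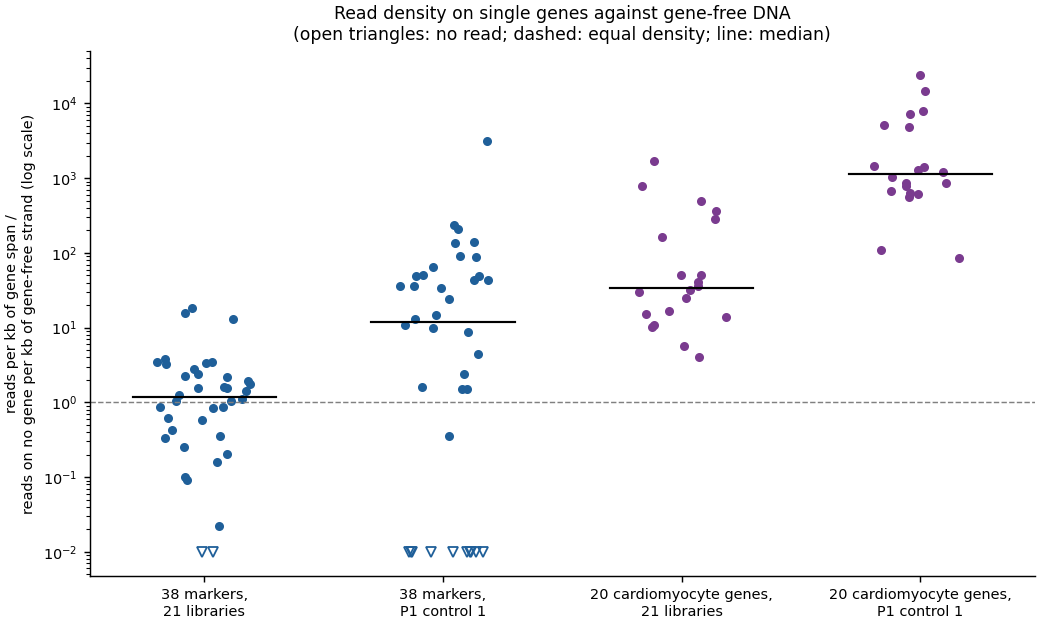
Points are single genes, and the log-scaled axis is the reads per kb of gene span divided by the reads on no gene per kb of gene-free strand in the same libraries, for the 21 kept libraries together and for P1 control replicate 1. Black lines are medians (1.18 and 12 for the 38 markers, 34.0 and 1120 for the 20 CM genes), the dashed line is an equal density, and open triangles are genes with no read.

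Endothelial markers summed to 207 to 1390 CPM (median 470 over the 21 libraries), with a density ratio of 0.520 to 4.76 (median 1.14). Values of single genes below are CPM scaled by TMM factors, as group means with SD over 3 or 4 libraries. Flt1, a receptor for VEGF-A, had 4681 reads, and its group means ran from 99.2 ± 46.6 CPM in P7 controls (n = 4) to 233 ± 51.7 in P14 Casp2-depleted libraries (n = 3). In P14 controls the mean was 204 ± 251 (n = 3), from libraries with 0, 171 and 637 reads. Pecam1, a junction protein of endothelial cells, had 3045 reads and means from 69.9 ± 18.7 (P1 control, n = 3) to 117 ± 74.8 (P1 Casp2-depleted, n = 4). Ptprb, a phosphatase that acts on the TIE2 receptor, had 2875 reads and means from 41.9 ± 23.7 (P14 Casp2-depleted, n = 3) to 118 ± 32.6 (P1 control, n = 3). The group ranges of Pecam1 overlapped in all 9 comparisons between genotypes or days.

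The other endothelial markers were thinner. Emcn, a sialomucin of capillaries and veins, had 1875 reads, Eng, a co-receptor for TGF-beta family ligands, had 1724, and Tek, which encodes TIE2, had 1108. Tie1, its partner receptor, had 700 reads in 15 of the 21 libraries. Vwf, the clotting factor carrier, had 376 reads, Cdh5, the cadherin of endothelial junctions, had 332, Kdr, the main signalling receptor for VEGF-A, had 259, and Npr3, an endocardial natriuretic peptide receptor, had 221. Kdr and Flt1 bind the same ligand, and their density ratios over the 21 libraries were 0.426 and 2.17. Lyve1, a lymphatic and macrophage hyaluronan receptor, had 4 reads. Egfl7, an endothelial secreted protein (chromosome 2, 26468286 to 26486789, GRCm39), had 0 reads in all 24 libraries. Of its span, 54.8% is shared on the same strand with Gm20532 and Mir126a, and reads in shared sequence are not given to either gene.

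Fibroblast markers summed to 18.8 to 276 CPM (median 116), with a density ratio of 0.605 to 4.19 (median 2.37). Lum, a proteoglycan of collagen fibrils, had 1312 reads and was absent from 1 kept library, P1 Casp2-depleted replicate 3. Its means ran from 13.8 ± 12.1 CPM (P1 Casp2-depleted, n = 4) to 79.0 ± 59.0 (P14 Casp2-depleted, n = 3). Postn, a matricellular protein of neonatal and activated fibroblasts, had 1290 reads and means from 28.2 ± 23.8 (P1 Casp2-depleted, n = 4) to 55.0 ± 50.6 (P14 Casp2-depleted, n = 3). Dcn, another collagen-binding proteoglycan, had 704 reads and means from 4.41 ± 7.64 (P14 Casp2-depleted, n = 3) to 40.5 ± 26.2 (P14 control, n = 3). Pdgfra, the receptor that marks most cardiac fibroblasts, had 205 reads in 13 libraries, and Tcf21, a transcription factor of the lineage, had 150 reads in 7.

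Mural markers summed to 18.0 to 304 CPM (median 134), with a density ratio of 0.228 to 5.30 (median 2.20). Cspg4, the NG2 proteoglycan of pericytes, had 1606 reads and means from 28.3 ± 26.4 CPM (P14 Casp2-depleted, n = 3) to 58.6 ± 65.1 (P1 Casp2-depleted, n = 4). Kcnj8, the pore subunit of ATP-sensitive potassium channels in pericytes, had 1495 reads and means from 22.8 ± 17.7 (P7 Casp2-depleted, n = 4) to 83.1 ± 75.0 (P14 control, n = 3). Notch3, a receptor of vascular smooth muscle, had 1056 reads and means from 26.2 ± 33.4 (P14 control, n = 3) to 54.4 ± 7.89 (P1 control, n = 3). In each of these genes the SD was as large as or larger than the mean in at least 1 group. Pdgfrb, the receptor through which vessels recruit pericytes, had 456 reads, and Rgs5, a regulator of G protein signalling abundant in pericytes, had 55.

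Immune markers summed to 67.8 to 560 CPM (median 158), and their density ratio of 0.392 to 1.19 (median 0.742) was above 1 in 5 of the 21 libraries. F13a1, a transglutaminase of resident macrophages, had 2087 reads and means from 34.4 ± 23.2 CPM (P7 control, n = 4) to 142 ± 33.4 (P14 Casp2-depleted, n = 3). Mrc1, the mannose receptor, had 1403 reads and means from 27.2 ± 22.5 (P1 Casp2-depleted, n = 4) to 60.0 ± 65.0 (P14 control, n = 3). Adgre1, which encodes F4/80, had 1365 reads and means from 22.4 ± 16.8 (P7 control, n = 4) to 70.5 ± 64.0 (P14 Casp2-depleted, n = 3). All 3 are long genes, and their density ratios over the 21 libraries were 0.869, 1.04 and 0.833. Csf1r, the receptor for macrophage growth factor CSF1, had 530 reads, Cpa3, a mast cell protease, had 569, and Ptprc, which encodes CD45, had 134 in 7 libraries. Cd68, a lysosomal protein of macrophages with a span of 2.03 kb, had 0 reads in all 24 libraries.

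Erythroid markers summed to 0 to 110 CPM (median 17.7). Hba-a1, an alpha globin, had 314 reads, with 22, 0 and 0 in the kept P1 control libraries, 79, 24, 0 and 49 in P1 Casp2-depleted libraries, and 0 in all 6 kept P14 libraries. Hbb-bs, a beta globin, had 360 reads, of which 107 lay in P14 Casp2-depleted replicate 4. Both globins have near-identical copies (Hba-a2 and Hbb-bt) that can share reads, so their counts are uncertain. Alas2, which starts haem synthesis in red cell precursors, had 109 reads, with at most 30 in any library.

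Epicardial markers summed to 8.96 to 188 CPM (median 42.7), with a median density ratio of 1.16. Wt1, a transcription factor of the epicardium also found in some endothelial cells, had 870 reads and means from 11.7 ± 19.6 CPM (P1 control, n = 3) to 36.8 ± 42.6 (P14 control, n = 3). Tbx18, a transcription factor of epicardium and mural cells, had 840 reads and means from 16.4 ± 17.2 (P1 Casp2-depleted, n = 4) to 34.5 ± 9.94 (P1 control, n = 3). Upk3b, a mesothelial membrane protein, had 27 and 38 reads in P1 Casp2-depleted replicates 1 and 4, 46 in P14 control replicate 2 and 0 elsewhere. Msln, another mesothelial protein, had 29 reads in P1 Casp2-depleted replicate 1 and 9 in P7 Casp2-depleted replicate 1. Thus 3 markers had under 10 reads over the 21 libraries (Egfl7, Cd68 and Lyve1), and Msln failed the filter because its reads lay in only 2 libraries.

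Between genotypes, no marker was called at any day. At P1, 0 of 34 tested markers were called (0% of all genes), and the smallest adjusted p was 0.644 in edgeR's quasi-likelihood test, with 1 marker at an unadjusted p below 0.05, or 2.94% against 7.34% of all genes. At P7, 0 of 34 were called (0% of all genes), and the smallest adjusted p was 1.0, with 0 markers at an unadjusted p below 0.05 (4.22% of all genes). At P14, 0 of 34 were called, where 0.167% of all genes were, and the smallest adjusted p was 0.379. An unadjusted p below 0.05 was reached by 5 markers there, 14.7% of those tested, against 12.8% of all genes. Neither test of a genotype difference that changed with day called a marker, at 0% of all genes from P1 to P7 and 0.0245% from P7 to P14. The biological coefficient of variation in this fit was 1.5.

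Cpa3 (chromosome 3, 20269774 to 20296362, GRCm39) was the marker with the smallest p at P1. It had 127, 61 and 0 reads in P1 control replicates 2, 3 and 4, and 0 in all 4 P1 Casp2-depleted libraries. The groups overlapped at 0, as 1 control library had no read, and Cpa3 was also at 0 in P1 control replicate 1. Against the limit of 3 reads over the group, the level from pooled reads was at least 99.5-fold lower in Casp2-depleted libraries (unadjusted p = 0.00064, adjusted p = 0.644, edgeR). This bound covers counting error and not the spread between pools. Without P1 control replicate 2 the bound was 52.3-fold. DESeq2 called Cpa3 in this comparison (log2 fold change -8.58), among 0.516% of all genes. At P7 it had 46, 2, 22 and 46 reads in controls and 4, 11, 72 and 36 in Casp2-depleted libraries, with overlap.

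Lum was the marker whose groups did not overlap at P1. It had 99, 40 and 87 reads in the kept control libraries and 43, 11, 0 and 52 in the Casp2-depleted ones, and after scaling all 3 controls lay above all 4 Casp2-depleted libraries. Mean levels were 52.3 ± 21.4 CPM (n = 3) and 13.8 ± 12.1 (n = 4), or -1.91 on the log2 scale with a standard error of 1.33 (adjusted p = 0.804, edgeR). It was 1 of 31 markers with at least 20 reads in the 2 groups, where 3.94% of all genes did not overlap, and at P7 0 of 33 markers were apart, against 1.81% of all genes.

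At P14, the groups of 3 of 29 markers did not overlap in TMM-scaled CPM, against 6.97% of all genes. Ptprb had 114, 170 and 145 reads in controls and 28, 62 and 102 in Casp2-depleted libraries, with means of 106 ± 23.7 and 41.9 ± 23.7 CPM (n = 3 each) or -1.34 on the log2 scale with a standard error of 0.95 (adjusted p = 0.584, edgeR). Eng had 124, 75 and 100 reads in controls and 58, 0 and 77 in Casp2-depleted libraries, with means of 73.3 ± 15.9 and 30.5 ± 26.8 CPM or -1.27 on the log2 scale with a standard error of 1.27 (adjusted p = 0.812, edgeR). After TMM scaling both endothelial genes were lower in each Casp2-depleted library than in any control, while in CPM without it, as plotted, the highest Casp2-depleted library lay above the lowest control for each. Pecam1, of the same cells, stood at 78.1 ± 37.3 CPM in controls and 94.6 ± 25.0 in Casp2-depleted libraries, with overlap, so the class did not move in 1 direction.

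Sox10, the transcription factor of Schwann cells and the glial marker here (0 reads in all P14 control libraries), had 21, 31 and 88 reads in P14 Casp2-depleted replicates 2, 3 and 4. It had 0 reads in replicate 1, which the study left out. Against the limit of 3 reads over the control group, the level from pooled reads was at least 41.9-fold higher in the kept Casp2-depleted libraries. The bound covers counting error and not the spread between pools, and without replicate 4 it was 23.4-fold. Adjusted p for Sox10 was 0.379 in edgeR. With limma-voom after quantile normalization Sox10 was called (log2 fold change 5.55), among 0.732% of all genes. At P7 Sox10 had 16, 0, 4 and 32 reads in controls and 4, 0, 0 and 12 in Casp2-depleted libraries, and at P1 it had 1 read in all 7 kept libraries together. Of 6 further glial genes, 4 were tested and none was called at P14, with 3 higher and 1 lower in Casp2-depleted libraries.

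The other markers past an unadjusted p of 0.05 at P14 had reads in at most 3 of the 6 libraries compared. Pdgfrb had 0, 38 and 0 reads in controls, Kdr 0, 3 and 45, and Upk3b 0, 46 and 0, and all 3 had 0 in the kept Casp2-depleted libraries. Tie1 had 2, 0 and 0 reads in controls and 35, 44 and 0 in Casp2-depleted libraries. Adjusted p was 0.379 for Pdgfrb and 0.388 for the other 3 (edgeR).

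**Figure D3:**
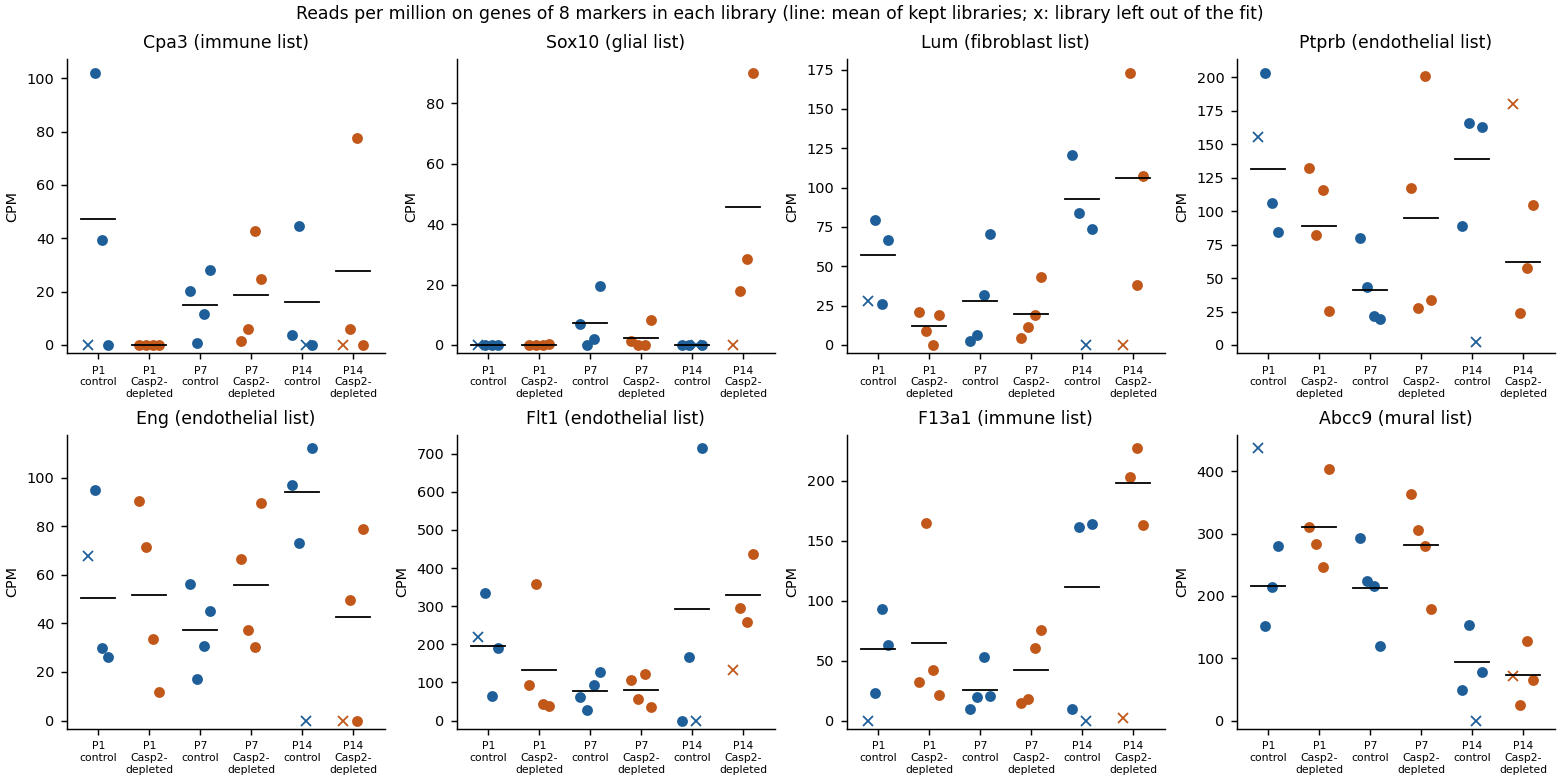
CPM (without TMM scaling) of 7 markers and of Abcc9 in each of the 24 libraries, by group, with controls in blue and Casp2-depleted libraries in orange. Lines are means of the kept libraries and crosses are the 3 libraries left out. Cpa3 is at 0 in all P1 Casp2-depleted libraries and Sox10 is at 0 in all P14 control libraries.

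From day to day, no marker was called in either genotype. In controls, 0 of 34 were called between P1 and P7 (0.00982% of all genes), between P7 and P14 (1.88%) and between P1 and P14 (0.319%), with smallest adjusted p of 0.626, 0.274 and 0.428 and with 1, 4 and 2 markers at an unadjusted p below 0.05 (edgeR). These are 2.94, 11.8 and 5.88% of the markers, against 6.67, 14.8 and 11.5% of all genes. In Casp2-depleted libraries, 0 of 34 were called between P1 and P7 (0.0196% of all genes), between P7 and P14 (2.83%) and between P1 and P14 (1.94%), with smallest adjusted p of 0.672, 0.150 and 0.0688 and with 3, 4 and 7 markers at an unadjusted p below 0.05. These are 8.82, 11.8 and 20.6% of the markers, against 7.40, 16 and 17.5% of all genes. Comparisons that share a group of libraries are not independent of each other.

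Single markers stood apart between days without passing the test. From P7 to P14 in Casp2-depleted libraries, 3 of 32 markers did not overlap, against 15.5% of all genes. Flt1 had 315, 103, 204 and 51 reads at P7 and 344, 281 and 426 at P14 (log2 fold change 1.2, standard error 0.68, adjusted p = 0.332, edgeR), and F13a1 had 42, 32, 102 and 109 and then 237, 246 and 159 (1.57, standard error 0.99, adjusted p = 0.380). Both were higher in CPM in every P14 library than in any P7 library. The third was Sox10 (adjusted p = 0.492). DESeq2 called Pdgfrb in this comparison, lower at P14 (183 reads in the P7 libraries against 0 at P14), among 5.75% of all genes, and limma-voom called Sox10, among 4% of all genes.

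In the other day comparisons of Casp2-depleted libraries, Cpa3 did not overlap from P1 to P7 (0 reads in 4 libraries, then 4 to 72), 1 of 31 markers where 2.19% of all genes were apart. By counting error alone, its level from pooled reads at P7 was at least 45.0-fold higher (adjusted p = 0.672, edgeR), or 24.3-fold without P7 Casp2-depleted replicate 3. From P1 to P14, Sox10 did not overlap, 1 of 33 markers against 7.99% of all genes. Cpa3 had the smallest adjusted p of all 9 comparisons there (0.0688, edgeR), with 0 reads in the 4 P1 libraries and 7, 84 and 0 at P14. It was called by DESeq2 with Sox10, among 5.83% of all genes, and Sox10 was called by limma-voom, among 2.99%. Without P14 control replicate 1, P14 control replicate 4 or P14 Casp2-depleted replicate 2, edgeR called Cpa3 too, with adjusted p of 0.0466, 0.0451 and 0.0477. The P14 control libraries are not part of this comparison and enter only through the shared fit. Leaving out any other single library gave no call. By counting error alone, the level of Cpa3 at P14 was at least 46.1-fold higher, or 5.46-fold without P14 Casp2-depleted replicate 3. In controls, Tie1 was apart between P7 (29, 53, 24 and 37 reads) and P14 (2, 0 and 0), 1 of 33 markers against 18.2% of all genes. No marker was apart between P1 and P7 (0 of 30, against 11.2%) or between P1 and P14 (0 of 31, against 10.2%).

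The CM genes moved in these same comparisons. All 20 were lower at P14 than at P7 in both genotypes. Of them, 10 were called in controls (1.88% of all genes), among them Tnnt2, Myl2, Myom1, Ryr2 and Cacna1c. In Casp2-depleted libraries 11 were called (2.83% of all genes), among them the same 5 genes with Atp2a2 and Pln. From P1 to P7, 19 were higher in controls and 11 in Casp2-depleted libraries, and none was called (0.00982 and 0.0196% of all genes). From P1 to P14, 17 were lower in controls and 20 in Casp2-depleted libraries. Tnnt2 alone was called in controls (0.319% of all genes). In Casp2-depleted libraries 10 were called (1.94% of all genes): Tnnt2, Myom1, Ryr2, Cacna1c, Tbx20, Rbm20, Myl2, Ldb3, Atp2a2 and Actc1. Tnnt2, cardiac troponin T, fell by 2.5 on the log2 scale between P7 and P14 in controls (standard error 0.32, adjusted p = 3.8e-11, edgeR). The median log2 fold change from P7 to P14 in controls was -2.27 for the 20 CM genes, 0.09 for the 34 markers and -0.75 for all genes tested. In Casp2-depleted libraries it was -2.48, -0.10 and -0.61. Between genotypes at P14 it was -0.78 for the CM genes, 0.04 for the markers and 0 for all genes. At P1 it was 0.587 for the CM genes and 0.0836 for all genes, and at P7 -0.358 and -0.0274.

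**Figure D4:**
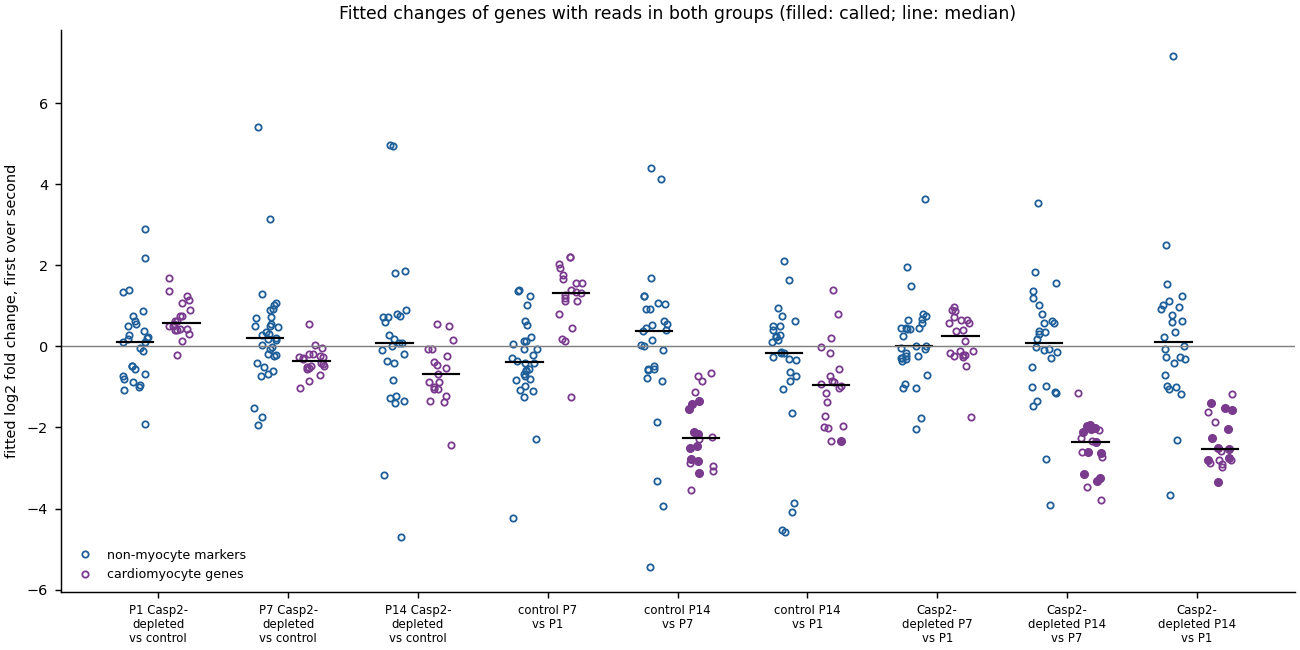
Fitted log2 fold change (first group over second) of single genes with reads in both groups, in the 9 comparisons, for the non-myocyte markers (blue) and the 20 CM genes (purple). Filled points were called and lines are medians: no marker is filled, and 10, 1, 11 and 10 CM genes are filled in the control P14 vs P7, control P14 vs P1, Casp2-depleted P14 vs P7 and Casp2-depleted P14 vs P1 columns.

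Summed by lineage, some classes were higher in CPM at P14. Fibroblast markers summed to 169 to 276 CPM in P14 control libraries, against 18.8 to 142 at P7 and 112 to 146 at P1. In Casp2-depleted libraries they summed to 154 to 260 at P14, against 67.1 to 118 at P7 and 44.8 to 114 at P1. None of these P14 ranges overlapped an earlier day of the same genotype. With TMM scaling only P14 against P1 in controls stayed without overlap, and without Lum, the fibroblast marker with the most reads, all 4 overlapped.

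The CPM sums of endothelial and immune markers were lower at P7 than at P1 in controls. Endothelial markers summed to 424 to 845 CPM at P1 and 207 to 416 at P7, and immune markers to 152 to 273 and 67.8 to 134. Both overlapped under TMM scaling, and both overlapped without the marker with the most reads (Flt1 and F13a1). In Casp2-depleted libraries both sums overlapped between P1 and P7 (endothelial 255 to 855 and 213 to 652 CPM, immune 84.3 to 340 and 68.7 to 333). Endothelial markers there summed to 669 to 770 CPM at P14, above P7. That comparison also overlapped under TMM scaling and without Flt1. Mural, erythroid and epicardial sums overlapped in all 9 comparisons. Between genotypes the CPM sums of every class other than Sox10 overlapped at each day. All 38 markers together summed to 958 to 1610 CPM at P1, 459 to 890 at P7 and 548 to 2360 at P14 in controls, and to 618 to 1380, 541 to 1150 and 1520 to 1730 CPM at P1, P7 and P14 in Casp2-depleted libraries. The P14 control range overlapped both earlier days and held the whole P14 Casp2-depleted range.

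Reads outside genes and on CM genes also changed between days. From P7 to P14 the fibroblast sums rose in CPM while the CM genes fell. At P7, 34.3 to 64.3% of placed reads lay on no gene, and at P14 63.7 to 76.1%. The density of reads on no gene was 0.369 to 0.689 per kb at P7 and 0.593 to 0.910 at P14. Relative to that density, the ranges of fibroblast, endothelial and immune markers overlapped between all days. At P14 the fibroblast markers then stood lower in Casp2-depleted libraries (ratio 1.44 to 2.37) than in controls (2.64 to 2.79), without overlap. Outside Sox10 this was the 1 class comparison without overlap on that measure. In CPM the same sums overlapped (154 to 260 against 169 to 276), as in reads per kb (1.15 to 2.16 against 1.65 to 2.17). The density of reads on no gene was 0.796 to 0.910 per kb in these Casp2-depleted libraries and 0.593 to 0.822 in the controls. The summed CM genes stood at 32300 to 69100 CPM in P1 control libraries, 80900 to 107000 at P7 and 19900 to 58800 at P14. The P1 and P14 ranges overlapped. All 38 markers together held 4.28 to 10.6 reads per 1000 CM reads in P7 controls, 9.33 to 96.8 in P14 controls, 7.00 to 19.8 in P7 Casp2-depleted libraries and 45.7 to 88.9 in P14 Casp2-depleted libraries. How far the change of the CM genes and of the reads outside genes sets these shares was not tested.

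P14 control replicate 1 held fewer marker reads than the other P14 libraries in the fit. It had 16 of the 38 markers and 0.0548% of its reads on them, against 0.192 and 0.236% in P14 control replicates 2 and 4. Its mural sum was 18.0 CPM, against 300 and 304. Without it, 18 of the 63 class comparisons (7 classes in 9 comparisons) did not overlap, against 10 with it. Over all genes with at least 20 reads, 1.81 to 18.2% did not overlap in these 9 comparisons of the 21 libraries, in TMM-scaled CPM.

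**Figure D5:**
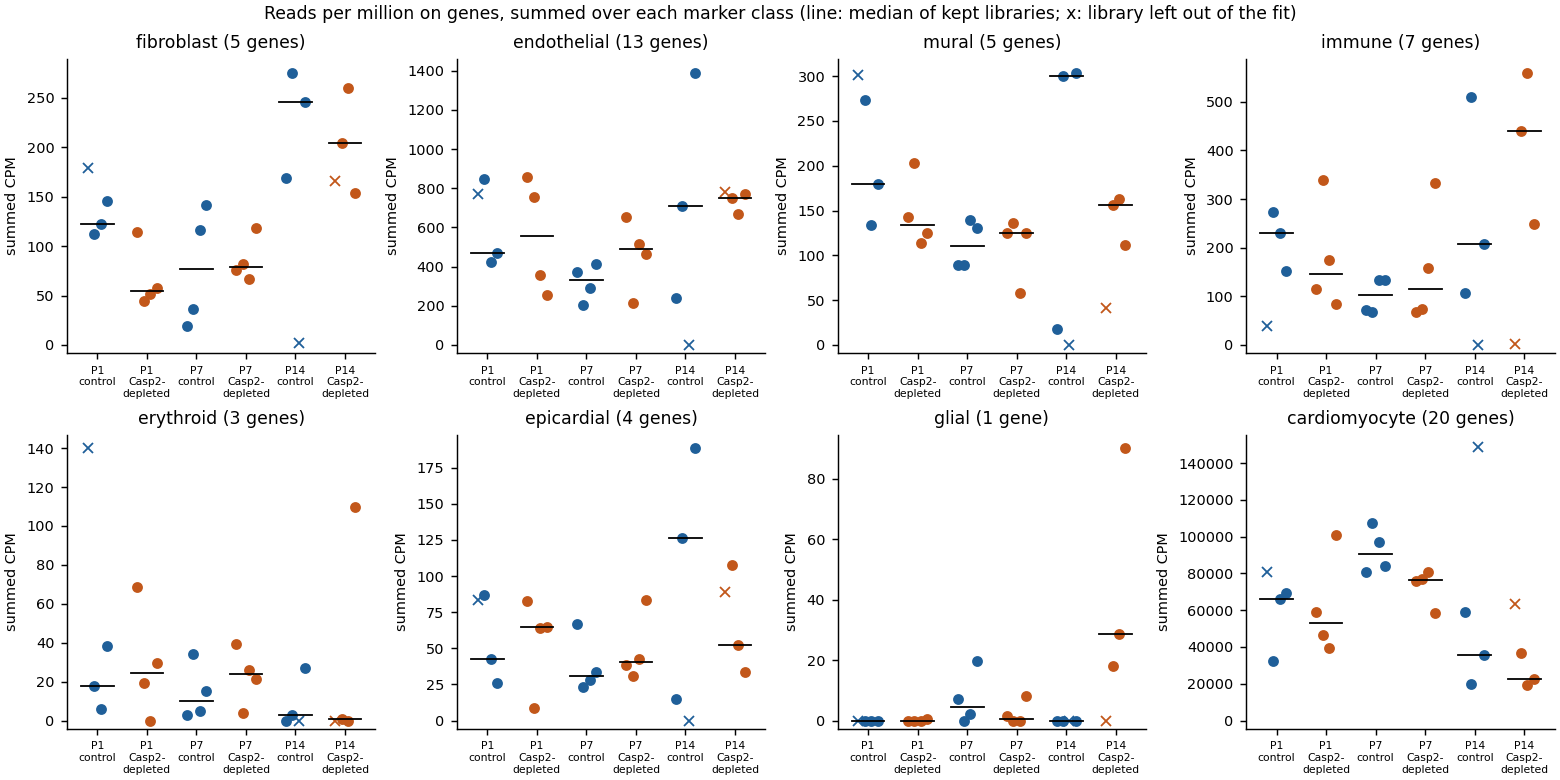
Summed CPM of each marker class and of the 20 CM genes in each of the 24 libraries, by group, with controls in blue and Casp2-depleted libraries in orange, and each panel has its own axis from 0. Lines are medians of the kept libraries and crosses are the 3 libraries left out: fibroblast sums lie at 154 to 276 CPM in the 6 kept P14 libraries, while the CM genes are lower at P14 than at P7.

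A wider set of 70 markers of the same lineages was also read. Of these, 46 passed the filter, 14 had under 10 reads and 7 had 0 reads over the 21 libraries. Their median density ratio was 0.479, with 22 above 1. The genes with the most reads were Loxl1 (2482 reads, fibroblast list), Erg (2122, endothelial), Abcc9 (7968, mural), Mertk (2616, immune), Hba-a2 (177, erythroid) and Muc16 (1721, epicardial). Macrophage genes were uneven. Cx3cr1, a chemokine receptor, had 2438 reads with reads in all 21 libraries (density ratio 8.77), Mertk, an efferocytosis receptor, had a ratio of 1.91, and Cd163, a scavenger receptor, had 473 reads (ratio 1.39). C1qc, Cd74 and Itgam had 0 reads, and C1qa and C1qb had 1 read each. Ndufa4l2, of pericytes, and Foxd3, of glial precursors, also had 0. Itgam, Cd74 and Foxd3 each overlap another gene on the same strand (Gm49368, Mir5107 and Gm55933). Reads in such shared sequence are given to neither gene. Summed, the further endothelial genes stood at 174 to 195 CPM in P14 control and 217 to 251 CPM in P14 Casp2-depleted libraries, and the further immune genes at 285 to 305 and 379 to 610 CPM. At P1 the further mural genes stood at 179 to 286 CPM in control and 297 to 417 CPM in Casp2-depleted libraries. These ranges did not overlap in CPM, and they overlapped relative to the density of reads on no gene. The other sums of further genes overlapped between genotypes in CPM at each day.

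Abcc9 was the 1 gene of the 46 tested that was called, in a pair of comparisons where 2.83 and 1.94% of all genes were, so the count lies near the background. It encodes the SUR2 subunit of ATP-sensitive potassium channels and is used by CMs as well as by pericytes. In Casp2-depleted libraries it had 642, 349, 300 and 1100 reads at P1, 1062, 551, 472 and 259 at P7, and 30, 139 and 64 at P14. It fell by 2.84 on the log2 scale from P7 to P14 (standard error 0.65, adjusted p = 0.0012, edgeR) and by 2.71 from P1 to P14 (standard error 0.65, adjusted p = 0.00338). Kcnj8, which encodes the pore that pairs with SUR2 in pericytes, stood at 22.8 ± 17.7 CPM at P7 (n = 4) and 46.6 ± 22.1 at P14 (n = 3) in the same libraries, and was not called. Both calls were lost with all 24 libraries (-2.77 and -2.66), and the second also with limma-voom (-2.89) and without P14 Casp2-depleted replicate 2 (-2.35) or replicate 4 (-2.41).

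The 3 libraries left out differed from each other. P1 control replicate 1 had reads on 28 markers and a total of 5007 marker reads, 0.151% of its reads on genes. Rgs5 (37 reads), Cspg4 (727) and Hba-a1 (375) were higher in CPM there than in any of the other 23 libraries, while F13a1, Kcnj8 and Cpa3 had 0. P14 control replicate 3 had 2 reads on Dcn and 2 on Ptprb and none on the other 36 markers, with 149000 CPM on the CM genes. P14 Casp2-depleted replicate 1 had reads on 9 markers, among them 484 on Pecam1, 239 on Dcn and 160 on Cdh5, and 0 on Lum, Postn, Flt4 and Sox10.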

How the data were processed

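Raw counts of QuantSeq 3′ reads per gene were deposited for 24 libraries. Before deposit, the authors checked reads with FastQC 0.11.8, trimmed them with cutadapt 4.0, aligned them to GRCm39 (Ensembl 108) with STAR 2.6.1e and assigned them with HTSeq 2.0.3 to full gene bodies, so that intronic reads were counted. Molecular identifiers and the strand setting are not given in the sources used here. Rows for reads on no gene, on several genes or unplaced were kept out of library sizes and tests. Gene symbols came from GENCODE vM39 (56236 of 56923 identifiers, 99.5% of reads). Coordinates are GRCm39.

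The members and gene lists were chosen with earlier results of these data known. The 21 libraries kept by the study entered 1 fit of 6 group means over 20368 genes with at least 10 reads in all and reads in at least 3 libraries. edgeR 4.0.16 (R 4.3.3) gave TMM factors and robust quasi-likelihood F-tests (robust estimation was chosen after seeing the data), with p-values adjusted by Benjamini-Hochberg over all genes. Libraries are pools of hearts, and p-values measure the spread between pools. Of the 38 markers, 34 were tested, and Egfl7, Lyve1, Cd68 and Msln were not. Genes were named by these rules: every member with its reads over the 21 libraries, the 3 members with the most reads of each class, members whose groups did not overlap with at least 20 reads, and, of the further lists, the gene with the most reads and called genes. Pecam1 beside Ptprb and Eng, Kcnj8 beside Abcc9, Tnnt2 and the further macrophage genes were named after their values were seen. Some genes that these rules name are not reported here. Alternatives were DESeq2 1.42.0, limma-voom 3.58.1 with quantile normalization, DESeq2 size factors, other filters, a replicate block, all 24 libraries, each library left out, class sums under TMM scaling, without the 10 most-read genes or the top member, and, added after seeing the data, fits without robust estimation, class densities per kb and fold bounds with libraries left out. The tests were run first on simulated data.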

Additional observations from a re-analysis of the deposited data

Results flagged for a closer look

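In 18 of 114 groups of 4 libraries (19 measures in 6 groups), 1 library of a group stood far from the other 3 by Dixon's check. The cut-off of this check gives about 1 in 20 by chance only for independent, normally distributed values. Here many values were 0 and the measures share reads, so the count cannot be compared with that rate. P1 control replicate 1 was far above its group in the density ratio of fibroblast (51.0), endothelial (28.9), mural (66.0), erythroid (163), epicardial (30.5) and all 38 markers (27.8). P14 control replicate 3 was far below in the fibroblast ratio (0.286). Both libraries were left out by the study, the first for signs of cytoplasmic contamination and the second for a low number of detected genes. The ratio divides by the density of reads on no gene. That density was 0.089 per kb in P1 control replicate 1 and 0.529 to 0.930 in the kept P1 controls. Its marker share of reads on genes was 0.151%, within the 0.0958 to 0.161% of the kept P1 controls. P7 Casp2-depleted replicate 1, the deepest of the 21 kept libraries, was far above in the endothelial ratio (4.76) and in that of all 38 markers (3.58), and P7 Casp2-depleted replicate 3 was far below in mural CPM (58.1).

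Erythroid markers stood apart in P7 control replicate 2 (ratio 7.06), in P14 control replicate 4 (26.9 CPM, ratio 1.21) and in P14 Casp2-depleted replicate 4 (110 CPM, ratio 4.22), where Hbb-bs held 107 reads. For Sox10, P1 Casp2-depleted replicate 4 (0.367 CPM, ratio 0.231) rested on 1 read, and P7 Casp2-depleted replicate 4 stood at 8.26 CPM from 12 reads.

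Of the libraries that the comparisons did not use, P1 control replicate 1 lay above its group's kept libraries in fibroblast (179 CPM), mural (302 CPM) and erythroid markers (140 CPM), and P14 Casp2-depleted replicate 1 lay above in endothelial markers (781 CPM). Why these libraries stood apart was not tested.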

How the results depend on the processing

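Marker calls were 0 under 321 of 330 alternative values over the 9 comparisons and 2 interactions. DESeq2 called 1 marker between genotypes at P1 (Cpa3), 1 from P7 to P14 (Pdgfrb) and 2 from P1 to P14 (Cpa3 and Sox10) in Casp2-depleted libraries. limma-voom with quantile normalization called 1 marker, Sox10, between genotypes at P14 and, in Casp2-depleted libraries, from P7 to P14 and from P1 to P14. Leaving out each library in turn gave 0 to 1 call from P1 to P14 in Casp2-depleted libraries (Cpa3). Of 63 class comparisons 10 did not overlap, and this count was 4 under TMM scaling, 4 with all 24 libraries, 4 relative to the density of reads on no gene and 1 without the marker with the most reads of each class, where the glial class, with 1 marker, could not enter (7 of the 10 lie outside it). These 7 all overlapped without the top marker, and all 7 overlapped relative to the density of reads on no gene. The class comparisons counted there outside Sox10 were therefore other ones. With single libraries left out the count of class comparisons without overlap ran from 10 to 18, the highest without P14 control replicate 1. The share of all genes without overlap was 1.81 to 18.2% in the same 9 comparisons (at least 20 reads, TMM-scaled CPM). Without robust estimation 0 markers were called in each test, with a smallest adjusted p of 0.053 (edgeR, P1 to P14 in Casp2-depleted libraries). No named fold changed direction. The causes were not tested.

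With the replicate number as a block, 0 markers were called in each of the 11 tests. The deposited files mark the number as a batch and the labels do not, and deviations of same-numbered libraries correlated at -0.059 to 0.185, so pairing is not shown. Over all genes, calls between genotypes at P14 were 34, against 13 with the block, 3 with edgeR's own filter, 15 without a filter, 662 with DESeq2 and 149 with limma-voom. Depth limits most statements: at 0.1% of reads (median), a marker had few reads per library.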
